A study of Mus musculus with 4 samples.

Results

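Voltage-gated sodium channels carry the rising phase of the action potential, and 9 genes of the family were described here in injured mouse spinal cord. They were SCN1A, SCN2A, SCN3A, SCN7A, SCN8A, SCN9A, SCN10A, SCN11A and SCN4B, chosen by their measured levels in ApoE3 and ApoE4 mice at 7 and 21 days post injury (dpi) in these same data. Because those values chose the genes, every level and ratio of a channel given here is a description, with no test. Of the 9 genes, 8 had a value at 1 or both time points, out of 14718 gene symbols listed in the series. SCN1A was listed at neither time point, so no level or ratio of it is given here.

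The mice were males in which the coding region of the human ApoE3 or ApoE4 allele replaced the mouse gene by targeted replacement, and they were 3 to 5 months old. All received an incomplete spinal cord injury, a 50 kdyne contusion under isoflurane at the thoracic level, and RNA came from the cord segment holding the lesion. The 4 groups were ApoE3 at 7 dpi, ApoE4 at 7 dpi, ApoE3 at 21 dpi and ApoE4 at 21 dpi, and no uninjured or sham mice were analysed here. Each group had 1 deposited value per gene, as FPKM, a count of sequenced fragments scaled to transcript length and library size, which combined the libraries of 3 mice. There was therefore no replicate check on any difference given here, and the number of reads behind each value is unknown.

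A voltage-gated sodium channel consists of a large pore-forming alpha subunit and smaller beta subunits that shape its gating and placement. SCN1A, SCN2A, SCN3A and SCN8A encode the alpha subunits of brain and spinal cord neurons, whereas SCN9A, SCN10A and SCN11A encode those typical of sensory neurons in the peripheral ganglia, where they serve pain signalling. SCN7A encodes an atypical sodium-sensing channel of sensory neurons and glia and was counted with the peripheral group, and SCN4B encodes a beta subunit and was counted with neither.

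The deposited table can be read in 2 ways. Its comparison name puts ApoE3 first, and that order was used here for the paired values, but its sample columns number ApoE4 first. Under that other reading every difference between genotypes given here would have the opposite direction, while every difference between genes, and the size of every ratio, would stay as given.

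The central and peripheral channels took opposite sides of ApoE3 and ApoE4 at 21 dpi and the same side at 7 dpi. At 21 dpi, SCN7A, SCN9A, SCN10A and SCN11A were higher in ApoE3 and SCN2A, SCN3A and SCN8A were higher in ApoE4, although SCN8A turned to the ApoE3 side, at 0.0069, once the log2 ratio was taken relative to all genes. At 7 dpi, SCN2A, SCN3A, SCN8A and SCN9A were all higher in ApoE3, by at most 1.34-fold, in SCN9A, on the log2(FPKM + 1) scale on which every ratio here was taken. The genotype order of the central channels at 21 dpi was also that of most other genes. Over genes with a mean of at least 1 FPKM, the median log2 ratio of ApoE3 to ApoE4 was 0.0018 at the early time point and -0.42 at the late one. ApoE3 was the lower genotype for 49.5% of genes early and 93.8% late, and at 21 dpi the summed FPKM was 1.35 times as high in ApoE4 as in ApoE3. The channels' ratios and the list medians at 21 dpi are therefore also given relative to that median, here called centred.

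**Figure D1:**
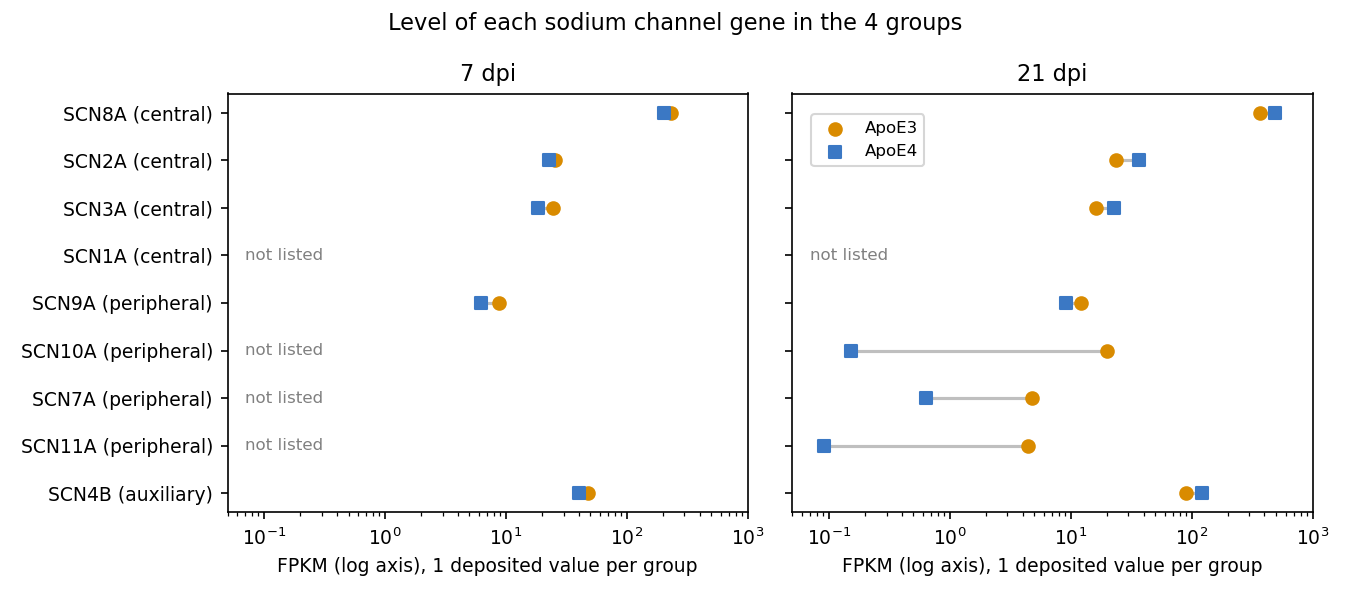
FPKM of each channel gene on a log axis at 7 and 21 dpi, with 1 point per group for ApoE3 (circles) and ApoE4 (squares) and a line joining them. The points of SCN2A, SCN3A, SCN8A, SCN9A and SCN4B lie close together, while those of SCN7A, SCN10A and SCN11A at 21 dpi lie far apart, with the ApoE4 value below 1 FPKM.

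SCN8A, the alpha subunit of mature nodes of Ranvier and axon initial segments, was the most abundant channel gene in every group. Its level was 232 FPKM in ApoE3 and 201 FPKM in ApoE4 at 7 dpi, and 365 FPKM in ApoE3 and 488 FPKM in ApoE4 at 21 dpi. Both 21 dpi groups lay above both 7 dpi groups, and ApoE4 at 21 dpi was highest. The log2 ratio of ApoE3 to ApoE4 was 0.21 at 7 dpi and -0.42 at 21 dpi. Relative to the median of all genes at 21 dpi it was 0.0069, so the sign of the SCN8A difference at 21 dpi turned with the centring. By mean FPKM, SCN8A stood at percentile 89.0 of the listed genes at 7 dpi and at percentile 93.9 at 21 dpi. Of the summed FPKM of the listed alpha subunits, SCN8A made up 79.9% in ApoE3 and 80.9% in ApoE4 at 7 dpi, and 81.7% in ApoE3 and 87.5% in ApoE4 at 21 dpi.

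SCN2A, found in immature nodes and unmyelinated axons, had 25.3 FPKM in ApoE3 and 22.8 FPKM in ApoE4 at 7 dpi, and 23.9 FPKM in ApoE3 and 36.8 FPKM in ApoE4 at 21 dpi. Its 3 lower groups lay close together and ApoE4 at 21 dpi stood above them. The log2 ratio was 0.14 at 7 dpi and -0.60 at 21 dpi, and -0.18 relative to the median of all genes at 21 dpi. SCN3A, which is most abundant in the embryonic nervous system, had 24.4 FPKM in ApoE3 and 18.6 FPKM in ApoE4 at 7 dpi, and 16.1 FPKM in ApoE3 and 23.0 FPKM in ApoE4 at 21 dpi. ApoE3 at 7 dpi and ApoE4 at 21 dpi were its high groups. Its log2 ratio was 0.37 at 7 dpi, -0.49 at 21 dpi and -0.067 at 21 dpi relative to all genes. The median log2 ratio of the 3 listed central channels was 0.21 at 7 dpi and -0.49 at 21 dpi, where it was -0.067 after centring.

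SCN4B, the beta subunit linked by a disulfide bond to alpha subunits and tied to resurgent sodium current, had the next highest level after SCN8A in every group. It had 47.9 FPKM in ApoE3 and 40.3 FPKM in ApoE4 at 7 dpi, and 89.2 FPKM in ApoE3 and 123 FPKM in ApoE4 at 21 dpi. As for SCN8A, both groups at 21 dpi were above both at 7 dpi. The log2 ratio was 0.24 at 7 dpi and -0.46 at 21 dpi, or -0.032 after centring.

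SCN9A was the peripheral channel listed at both time points. It had 8.71 FPKM in ApoE3 and 6.22 FPKM in ApoE4 at 7 dpi, and 12.3 FPKM in ApoE3 and 9.10 FPKM in ApoE4 at 21 dpi. ApoE3 was the higher genotype at each time, and both 21 dpi groups were above both 7 dpi groups. The log2 ratio was 0.43 at 7 dpi and 0.39 at 21 dpi, and 0.82 at 21 dpi after centring. SCN9A lay on the side opposite to the bulk of genes at 21 dpi.

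SCN10A, the tetrodotoxin-resistant channel of nociceptors, had 20.1 FPKM in ApoE3 and 0.153 FPKM in ApoE4 at 21 dpi. SCN11A, a further tetrodotoxin-resistant channel of small sensory neurons, had 4.46 FPKM in ApoE3 and 0.0906 FPKM in ApoE4. SCN7A had 4.80 FPKM in ApoE3 and 0.630 FPKM in ApoE4. In ApoE3, SCN10A lay above SCN3A and SCN9A and below SCN2A, while SCN7A and SCN11A were the lowest channels listed. In ApoE4 all 3 were under 1 FPKM and below every other channel listed. On the log2(FPKM + 1) scale the ratios were 4.20 for SCN10A, 2.32 for SCN11A and 1.83 for SCN7A, which are folds of 18.3, 5.01 and 3.56. Relative to the median of all genes they were 4.62, 2.75 and 2.26. The pseudocount of 1 exceeds each of the 3 ApoE4 values, so these ratios rest on its size. With a pseudocount of 0.1 the log2 ratios were 6.32 for SCN10A, 4.58 for SCN11A and 2.75 for SCN7A, and with none the folds were 132, 49.3 and 7.62.

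SCN7A, SCN10A and SCN11A were not listed at 7 dpi, so neither their levels nor a change with time can be given. The table held only genes that the authors' program passed for testing. No gene of the 11474 rows at 21 dpi had both genotypes at or below the 0.630 FPKM of SCN7A in ApoE4, while 48 rows had an ApoE4 value at or below it. These 3 channels were therefore listed through their ApoE3 values, and no gene as low as this in both genotypes was listed. Counts and medians over the listed channels carry that selection and cannot stand as support.

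With a call set at a fold of at least 2, SCN7A, SCN10A and SCN11A were the 3 of 8 listed channels called higher in ApoE3 at 21 dpi, where 0.75% of all genes were called in that direction. None of the 8 was called higher in ApoE4, against 3.77% of all genes. At 7 dpi, 0 of 5 channels were called higher in ApoE3, against 0.34% of all genes, and 0 of 5 higher in ApoE4, against 0.255%. At a fold of at least 1.3, 1 channel, SCN9A, was called higher in ApoE3 at 7 dpi, beside 3.78% of all genes, and 0 higher in ApoE4, beside 4.76%. At 21 dpi the lower fold called SCN7A, SCN9A, SCN10A and SCN11A higher in ApoE3, 4 of 8 channels beside 2.02% of all genes. It called SCN2A, SCN3A, SCN8A and SCN4B higher in ApoE4, 4 of 8 channels beside 58.9% of all genes. Nothing is read from these counts, since the channels were chosen in the same contrast.

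**Figure D2:**
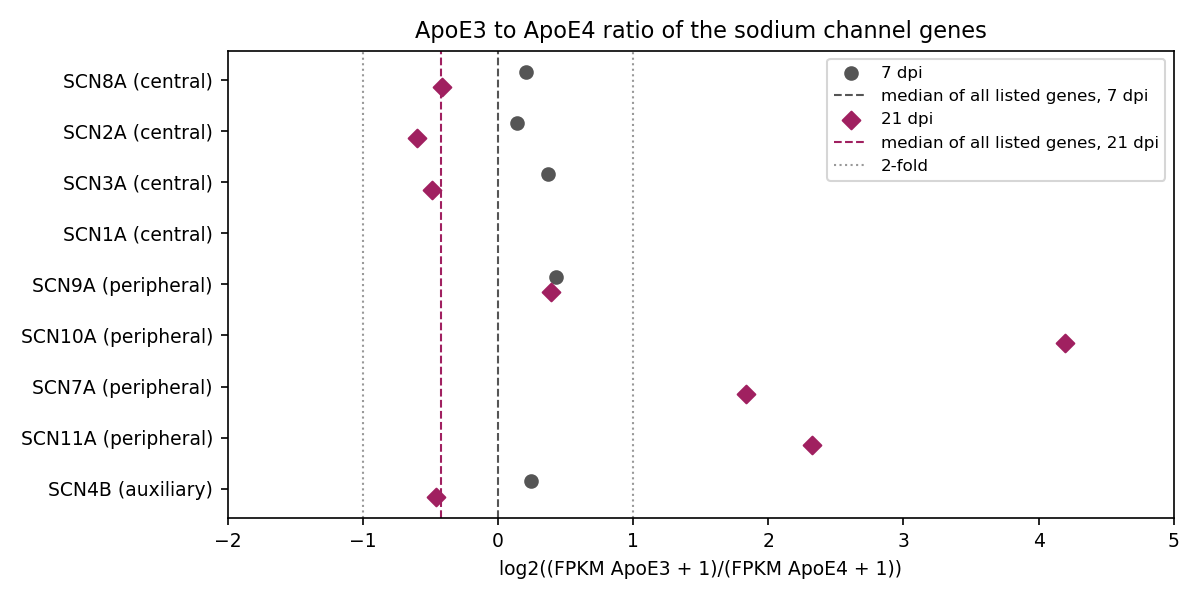
Log2 ratio of ApoE3 to ApoE4 for each listed channel gene at 7 dpi (circles) and 21 dpi (diamonds), with dashed lines at the median of all listed genes and dotted lines at a 2-fold difference. At 21 dpi the central channels and SCN4B lie near the median of all genes and the 4 peripheral channels lie to the right of it.

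**Figure D3:**
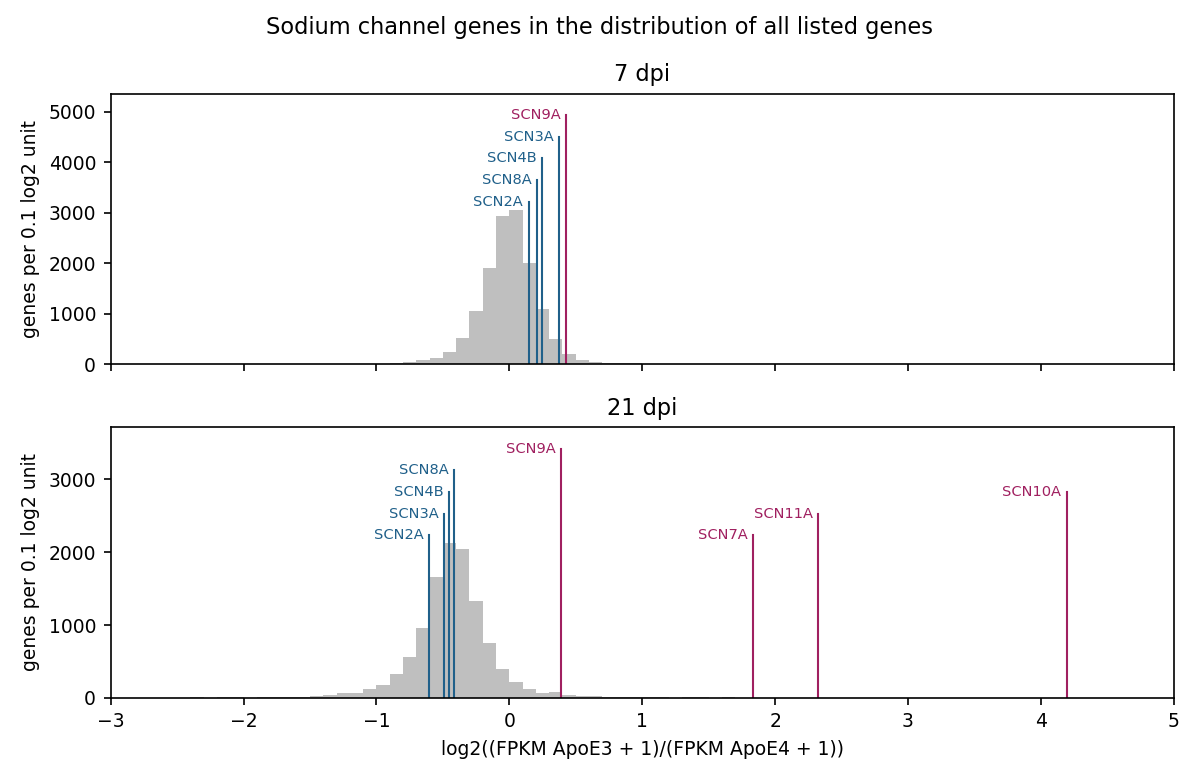
Number of listed genes per 0.1 log2 unit of the ApoE3 to ApoE4 ratio at 7 and 21 dpi (grey bars), with a vertical line at the ratio of each channel gene, peripheral channels in magenta and the others in blue. The axis is drawn from -3 to 5, and genes beyond it are not shown.

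The peripheral share of alpha subunit transcripts differed between the genotypes at 21 dpi. The 4 peripheral channels summed to 41.6 FPKM in ApoE3 and 9.97 FPKM in ApoE4, and the 3 listed central channels to 405 FPKM and 547 FPKM. Of the alpha subunit sum, the peripheral channels were thus 9.32% in ApoE3 and 1.79% in ApoE4. At 7 dpi, where SCN9A alone represented them, the shares were 2.99% and 2.50%. SCN10A reached 5.51% of the SCN8A level in ApoE3 and 0.0313% in ApoE4. The median log2 ratio of the 4 peripheral channels at 21 dpi was 2.08, and 2.50 after centring. Such shares compare levels per length within a group and do not use the scale between groups.

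Between 7 and 21 dpi the channels listed at both times took different courses. Levels at the 2 time points may have been normalised apart, so these values are set side by side as a description. Over the 10771 genes listed at both times with a mean of at least 1 FPKM at each, the median log2 ratio of 21 to 7 dpi was 0.087 in ApoE3 and 0.52 in ApoE4. SCN8A was higher at 21 dpi by a log2 ratio of 0.65 in ApoE3 and 1.27 in ApoE4, and SCN4B by 0.88 and 1.58, each above that median in its genotype. SCN3A was at -0.57 in ApoE3 and 0.29 in ApoE4, below that median in both. SCN2A was at -0.079 in ApoE3 and 0.67 in ApoE4, and SCN9A at 0.45 in ApoE3 and 0.48 in ApoE4. SCN9A was above the median in ApoE3, by 0.36, and near it in ApoE4, at -0.041.

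The profile of SCN8A over the 4 groups was compared with those of the 10770 other genes of that set, as the Euclidean distance between log2(FPKM + 1) profiles centred on their own means. The nearest were GPR162 at 0.0269, LHFPL4 at 0.0270, NICN1 at 0.0307, KCNJ9 at 0.0328 and MFSD4A at 0.0329. GPR162, an orphan receptor, had 221, 188, 349 and 458 FPKM in ApoE3 and ApoE4 at 7 dpi and ApoE3 and ApoE4 at 21 dpi, close to SCN8A in level as well. Among channels, SCN4B ranked 1247 from SCN8A, at 0.276, with SCN2A, SCN9A and SCN3A farther. The genes nearest to SCN9A were CFAP43 at 0.0834, PRRG3 at 0.154, REM2 at 0.171, TNXB at 0.176 and KCNK5 at 0.178. With 4 groups, many genes share a profile, and the distance says nothing of shared function or control.

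SCN3B, a further beta subunit, had the genotype order of the central channels at both times. It had 29.4 FPKM in ApoE3 and 20.6 FPKM in ApoE4 at 7 dpi, and 35.6 FPKM and 46.8 FPKM at 21 dpi. SCN2B was listed at 7 dpi, with 33.0 FPKM in ApoE3 and 29.4 FPKM in ApoE4. The muscle channel SCN4A was listed at neither time. The median log2 ratio of SCN2B and SCN3B at 7 dpi was 0.33, and at 21 dpi SCN3B was at -0.38, or 0.040 after centring on all genes.

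Genes that anchor sodium channels at the node of Ranvier lay on both sides of the all-gene median at 21 dpi. Of 9 such genes 8 were listed at each time, 1 was higher in ApoE3 at 21 dpi and 7 were higher in ApoE4, with a median log2 ratio of -0.40, and at 7 dpi the median was 0.10. ANK3, which encodes the ankyrin-G that holds sodium channels in place, had 2141 FPKM in ApoE3 and 2765 FPKM in ApoE4 at 21 dpi. The 1 gene higher in ApoE3 was GLDN, encoding the gliomedin that Schwann cells place at peripheral nodes, with 2.11 FPKM in ApoE3 and 0.960 FPKM in ApoE4. Of 5 axonal potassium channel genes, 4 were listed at 21 dpi, all 4 higher in ApoE4 with a median of -0.37, and at 7 dpi ApoE3 was higher for each of the 5, the median being 0.28. Among 8 intracellular modulators of sodium channels, 5 were listed at 21 dpi with a median of -0.35 and 8 at 7 dpi with a median of 0.15. The sodium leak channel complex had 3 of 4 genes listed at 21 dpi, with a median of -0.49, and 4 at 7 dpi, with a median of 0.32. All 5 sodium pump genes were listed and higher in ApoE4 at 21 dpi, with a median of -0.48, and 4 were listed at 7 dpi, with a median of 0.17. After centring, the 21 dpi medians were 0.019 for the anchoring genes, 0.053 for the potassium channels and 0.075 for the modulators, where the sign turned, and -0.062 for the leak channel complex and -0.058 for the sodium pump, where it did not. Single anchoring genes ranged from -0.40 for CNTN1 to 1.09 for GLDN after centring. None of the genes on these 4 lists and the anchoring list was called at a fold of 2 at either time, where few genes of any kind were called, 0.34% and 0.255% at 7 dpi and 0.75% and 3.77% at 21 dpi for the ApoE3 and ApoE4 directions.

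Sensory channels of other families were split at 21 dpi, as the sodium channels were. Of 9 sensory transduction and acid-sensing channel genes 6 were listed, 3 higher in ApoE3 and 3 higher in ApoE4, with a median log2 ratio of 0.25. Relative to all genes 5 were above the median and 1 below, and the list's median was 0.67. P2RX3, the ATP-gated channel of nociceptors, had 24.1 FPKM in ApoE3 and 6.51 FPKM in ApoE4, and ASIC3, an acid-sensing channel of sensory neurons, had 20.9 FPKM and 11.7 FPKM. TRPV1, the capsaicin receptor, had 1.61 FPKM in ApoE3 and was listed at 0 in ApoE4. In contrast ASIC1 and HCN2, found widely in the central nervous system, were higher in ApoE4, and ASIC1 had 117 FPKM in ApoE3 and 144 FPKM in ApoE4. At 7 dpi, 4 of the 9 were listed, with a median of 0.27.

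**Figure D4:**
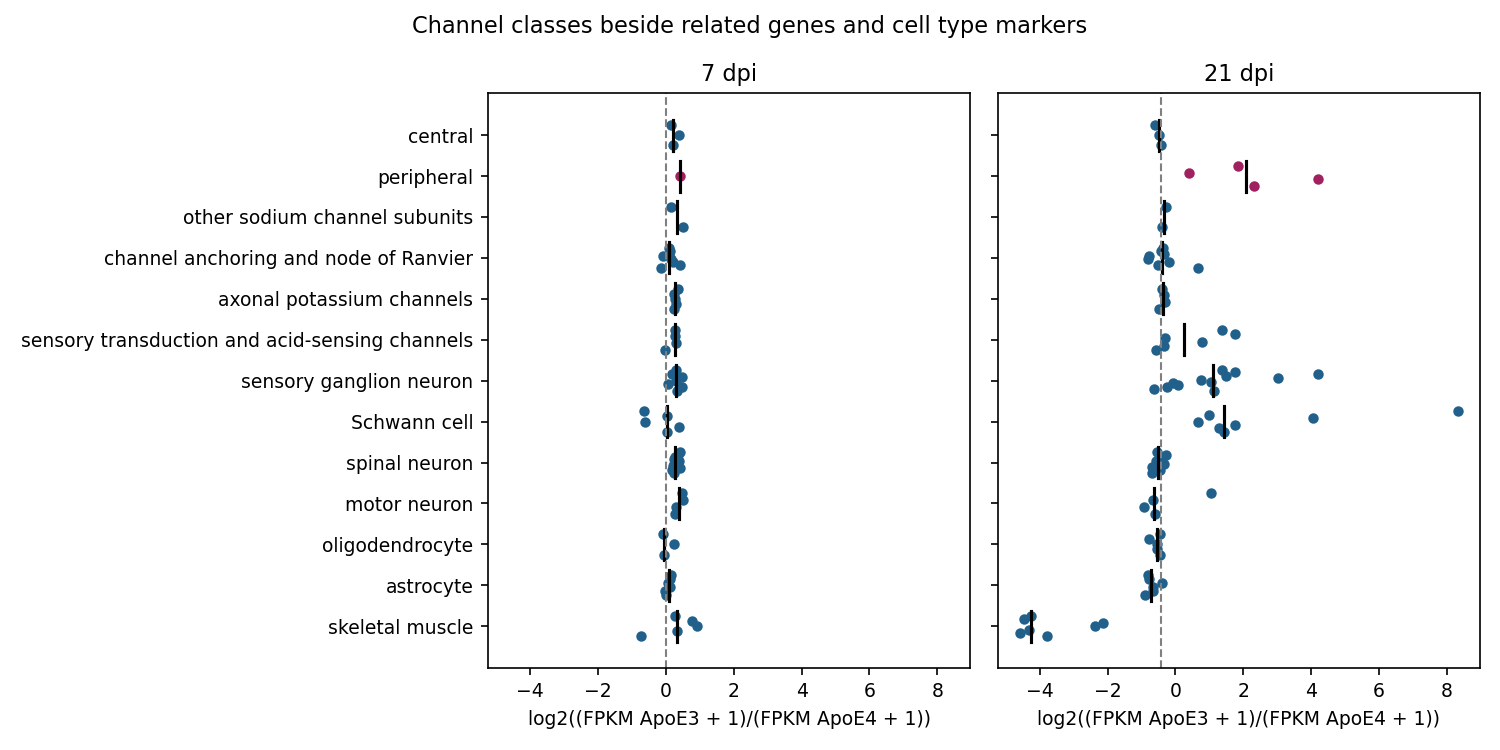
Log2 ratio of ApoE3 to ApoE4 of the listed genes of each channel class, related channel list and cell type marker list at 7 and 21 dpi, with 1 point per gene, a black bar at each list's median and a dashed line at the median of all listed genes. At 21 dpi the peripheral channels lie to the right together with the sensory ganglion neuron and Schwann cell markers, and the skeletal muscle markers lie to the left.

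Several markers of peripheral cells were higher in ApoE3 at 21 dpi, as the peripheral channels were. Among 13 sensory ganglion markers, 12 had values at 21 dpi. ApoE3 was higher for 9 of them, 7 past a fold of 2 beside 0.75% of all genes, and ApoE4 for 3, and the median log2 ratio was 1.09. Relative to the median of all genes, 11 lay above it and RET below, and the list's median was 1.52. TRPV1 and P2RX3 of this list are also among the sensory channels above, and ISL1 is also a motor neuron marker. Their summed level was 945 FPKM in ApoE3 and 1018 FPKM in ApoE4, most of it from CALCA, which motor neurons also express, with 702 FPKM and 830 FPKM. AVIL, encoding the sensory neuron protein advillin, had 39.1 FPKM in ApoE3 and 1.20 FPKM in ApoE4. TRPV1 and MRGPRD were listed at 0 in ApoE4, and in ApoE3 they were low, at 1.61 and 1.80 FPKM. Other markers of the list differed less between the genotypes or were higher in ApoE4 before centring. RET was higher in ApoE4, with 56.9 FPKM in ApoE3 and 89.0 FPKM in ApoE4, PRRXL1 had 60.9 and 64.5 FPKM, and TLX3 had 6.96 and 6.63 FPKM, the last 2 at 0.34 and 0.48 relative to all genes. POU4F1 had 32.1 FPKM in ApoE3 and 18.8 FPKM in ApoE4. At 7 dpi, values were listed for 7 of the 13, each higher in ApoE3 and none called, with a median of 0.30 and summed levels of 600 FPKM in ApoE3 and 457 FPKM in ApoE4.

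Schwann cell markers showed the same direction as SCN7A and SCN10A at 21 dpi. Of 8 markers 7 were listed, all higher in ApoE3 and 5 called, beside 0.75% of all genes, with a median log2 ratio of 1.42, or 1.85 after centring, and summed levels of 3341 FPKM in ApoE3 and 1186 FPKM in ApoE4. PMP22 was the most abundant, with 1970 FPKM in ApoE3 and 992 FPKM in ApoE4. CLDN19, a tight junction protein of Schwann cells, had 18.6 FPKM in ApoE3 and 0.188 FPKM in ApoE4. At 7 dpi 5 of the 8 were listed, 3 higher in ApoE3 and 2 in ApoE4, with a median of 0.039 and summed levels of 823 FPKM and 817 FPKM. As with the channels, some of these markers were listed through their ApoE3 values, namely TRPV1, MRGPRD, GFRA3, CLDN19 and PMP2, each below 0.630 FPKM in ApoE4, so the counts and medians of both lists carry that selection and cannot stand as support. The part of sensory neuron and Schwann cell RNA in the levels of SCN7A, SCN9A, SCN10A and SCN11A was not tested, and more cells of a type and more RNA per cell cannot be told apart in these tissue samples.

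Markers of spinal neurons had the genotype order of SCN2A, SCN3A and SCN8A at both time points. Of 10 spinal neuron markers 8 were listed at 21 dpi, all 8 higher in ApoE4, with a median log2 ratio of -0.50 and summed levels of 7467 FPKM in ApoE3 and 10842 FPKM in ApoE4, SNAP25 being the most abundant. For the early time point all 10 were listed, each higher in ApoE3, and their median was 0.26. Centring left the late median at -0.080. SCN2A and SCN3A stood on either side of the neuron median at both time points. Motor neuron markers had medians of 0.40 at 7 dpi and -0.62 at 21 dpi, the latter -0.20 after centring, with 4 of 5 listed at each time, and ISL1 was called higher in ApoE3 at 21 dpi. Oligodendrocyte markers, with 3 of 6 listed at 7 dpi and 5 at 21 dpi, had medians of -0.048 and -0.54. All 6 astrocyte markers were listed, with medians of 0.085 and -0.72, and 2 of 4 microglia markers, with medians of -0.044 and -0.66. After centring, the 21 dpi medians were -0.12 for oligodendrocyte, -0.29 for astrocyte and -0.24 for microglia markers.

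Skeletal muscle markers went the other way from the peripheral channels at 21 dpi. All 7 listed of 8 were called higher in ApoE4, beside 3.77% of all genes, with a median log2 ratio of -4.27, or -3.85 after centring, and summed levels of 33.0 FPKM in ApoE3 and 723 FPKM in ApoE4. TNNT3 was the most abundant, with 22.5 FPKM in ApoE3 and 515 FPKM in ApoE4, and MYH4 was listed at 0 in ApoE3. TNNC2 at 0.0562 FPKM and ATP2A1 at 0.411 FPKM were also low in ApoE3, and these 3 were listed through their ApoE4 values. At 7 dpi 5 were listed, with a median of 0.34 and summed levels of 62.5 FPKM and 40.3 FPKM. The muscle sodium channel SCN4A was not listed beside them. ApoE3 and ApoE4 at 21 dpi therefore differed in muscle and Schwann cell markers as well as in SCN7A, SCN10A and SCN11A, and genotype and the content of the dissected segment cannot be told apart in 1 value per group.

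The peripheral channels lie in 2 gene clusters of the mouse genome. In the RefSeq gene order of GRCm38.p6, SCN10A and SCN11A are neighbouring coding genes on chromosome 9. SCN9A lies between SCN1A and SCN7A on chromosome 2, where SCN3A and SCN2A also lie side by side. SCN8A lies apart from the others, on chromosome 15, and SCN4B lies beside SCN2B on chromosome 9. At 21 dpi the neighbours SCN10A and SCN11A had ratios of 4.20 and 2.32, the neighbours SCN9A and SCN7A had 0.39 and 1.83, and the neighbours SCN3A and SCN2A had -0.49 and -0.60.

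The upstream sequences of SCN10A, SCN11A and SCN7A, the channels with the widest genotype difference, are shown beside that of SCN8A, the most abundant channel. Of the 9 channels, 8 were matched by symbol in the RefSeq promoter table of GRCm38.p6. Each sequence is the 250 bases before an annotated transcription start, 5′ to 3′ on the strand of the gene. SCN10A is at chr9:119719033-119719282, SCN11A at chr9:119825457-119825706 and SCN7A at chr2:66784911-66785160, all on the minus strand. SCN8A is at chr15:100870395-100870644 on the plus strand, before the first of its 2 annotated starts. Capitals mark matches to the E-box CANNTG.
SCN10A: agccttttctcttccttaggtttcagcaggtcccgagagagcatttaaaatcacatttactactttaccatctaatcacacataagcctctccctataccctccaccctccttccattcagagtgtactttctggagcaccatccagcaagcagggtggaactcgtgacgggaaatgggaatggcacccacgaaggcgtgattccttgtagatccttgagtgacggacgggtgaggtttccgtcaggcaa
SCN11A: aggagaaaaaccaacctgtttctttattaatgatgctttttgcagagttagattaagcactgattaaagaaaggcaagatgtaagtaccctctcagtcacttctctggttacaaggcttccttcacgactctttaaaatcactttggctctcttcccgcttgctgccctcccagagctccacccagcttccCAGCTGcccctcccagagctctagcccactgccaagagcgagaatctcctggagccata
SCN7A: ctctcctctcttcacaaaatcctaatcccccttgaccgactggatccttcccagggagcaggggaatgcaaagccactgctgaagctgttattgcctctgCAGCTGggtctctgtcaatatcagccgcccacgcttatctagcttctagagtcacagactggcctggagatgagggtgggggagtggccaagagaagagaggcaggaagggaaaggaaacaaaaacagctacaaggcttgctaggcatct
SCN8A: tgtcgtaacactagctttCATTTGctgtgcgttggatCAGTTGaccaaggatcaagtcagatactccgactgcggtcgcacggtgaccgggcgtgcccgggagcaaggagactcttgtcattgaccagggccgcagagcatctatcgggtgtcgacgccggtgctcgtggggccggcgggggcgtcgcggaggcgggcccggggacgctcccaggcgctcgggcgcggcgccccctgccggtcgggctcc

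These windows differed in CpG content. The printed window of SCN8A held 30 CpG dinucleotides, more than 94.1% of the 32851 windows of the same length in the table, and SCN4B held 23. The window before the other annotated start of SCN8A held 9, with a GC content of 53.2% and none of the motifs searched. SCN10A held 8, SCN9A 5, SCN7A 3 and SCN11A 3, against a median of 6 over all windows. Of the other central channels, SCN1A held 4, and SCN2A held 2 before its first annotated start and 9 before its second. GC content was 68.0% for the printed window of SCN8A, 49.6% for SCN10A, 48.0% for SCN11A and 53.2% for SCN7A, with a median of 52.4% over all windows. On both strands 4 motifs were searched, namely the E-box CANNTG, the TATA box TATAAA, the RUNX motif TGTGGT and the RE1 half-site TTCAGCACC. All windows held them in 66.2%, 12.4%, 14% and 0.301% of cases. SCN11A and SCN7A held 1 E-box each and the printed window of SCN8A held 2, with no overlap between them, while SCN10A held none of the 4 motifs. A match is a description of these letters and no more, and the absence of one says nothing of the factor.

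Shared sequence could move reads between channels, and it was counted as exact 100-base words shared among the sodium channel genes. Near matches and words shared with genes outside the family were not searched. Whether reads moved between channels was not tested. In GENCODE vM21 transcripts, 2.22% of the 100-base words of SCN3A, 1.44% of those of SCN9A and 1.03% of those of SCN2A also occurred in another sodium channel gene. For SCN7A, SCN8A, SCN10A, SCN11A and SCN4B that share was 0. SCN9A shared 180 exonic bases, 1.41% of its exonic bases, with a gene on the opposite strand, Gm13629, and the library kit does not mark strand, so reads there cannot be told apart.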

How the data were processed

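Lesion segments were sequenced by the authors (TruSeq v2 kit, which does not mark strand). By the study's methods all libraries were reduced to the size of the smallest before alignment and 1 replicate aligned less well than the rest, whose group was not known here. The submitters' processing notes list STAR 2.5.4b, Bowtie2 2.1.10, SAMtools 0.1.7 and Cuffdiff 1.3.0, and the genome build and annotation are not given in the sources used here. The deposited values were FPKM plus 1, for genes the authors' test passed, 14127 rows at 7 dpi and 11474 at 21 dpi. The replicates were combined in each value. The table's other columns hold the authors' fold changes, p-values and q-values. The fold changes served only as a check, and equalled the first paired value over the second in all 14127 and 11474 rows. The p-values and q-values were not used.

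The 1 was subtracted from each value to give FPKM. The paired values were read in the order of the comparison's name, ApoE3 then ApoE4, although the sample columns number ApoE4 first. Ratios were log2((FPKM ApoE3 + 1)/(FPKM ApoE4 + 1)), a scale that understates the change of low genes, and a call was a fold of at least 2. With 1 value per group no test was made. Alternatives were a pseudocount of 0.1, centring on the median of genes with a mean of at least 1 FPKM, a fold of at least 1.3, a mean of at least 1 FPKM, and leaving SCN7A out of the peripheral group. The channels and the 15 lists of other genes (7 of related channels and partners, 8 of cell type markers) were chosen with earlier results of these data known. The genes named were the channels, the genes of those lists, and the 5 genes nearest to SCN8A and to SCN9A, the most abundant central and peripheral channels listed at both times, by profile distance among genes with a mean of at least 1 FPKM at each time point. Some genes of the lists are not reported here by name. Symbols that fell on 2 rows were kept as 2 rows in the counts. Python 3.11.15, numpy 2.4.6, pandas 2.3.3 and matplotlib 3.10.9 were used, and the ratio and call steps were tested on simulated data.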

Additional observations from a re-analysis of the deposited data

Results flagged for a closer look

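In 4 channels the genotype order was opposite at the 2 time points, with ApoE3 higher at 7 dpi and ApoE4 higher at 21 dpi. The log2 ratio of ApoE3 to ApoE4 at 21 dpi minus that at 7 dpi was -0.75 for SCN2A, -0.86 for SCN3A, -0.62 for SCN8A and -0.70 for SCN4B. With 1 value per group, the difference between the time points was not tested. Relative to the median of all genes at each time point, which itself moved from 0.0018 to -0.42, these differences were -0.32, -0.44, -0.20 and -0.27. SCN9A, the fifth channel listed at both times, was higher in ApoE3 at each.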

How the results depend on the processing

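No paired analysis was possible because each group had 1 value per gene. Of 29 alternatives for the counts and class medians 21 left a count within 1.5 times, or a median within 0.005, of the main value, and of 26 alternatives for single channels 25 kept the sign. The exception was SCN8A at 21 dpi, at 0.0069 after centring on the median of all genes. At a fold of at least 1.3 the channels called higher in ApoE3 at 7 dpi went from 0 to 1, and those called higher in ApoE4 at 21 dpi from 0 to 4. With a pseudocount of 0.1 the peripheral median log2 ratio was 0.48 at 7 dpi and 3.66 at 21 dpi, and the central median at 21 dpi was -0.51. Centring gave 2.50 for the peripheral and -0.067 for the central median at 21 dpi. Without SCN7A the peripheral median at 21 dpi was 2.32, and at 7 dpi SCN7A was not listed, so leaving it out gave no other value. The ratios of SCN7A, SCN10A and SCN11A rest on ApoE4 values below 1 FPKM whose number of reads is unknown, so their size is not bounded.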
